A study of Mus musculus with 13 samples.

Results

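The passage from day 5 after birth (P5) to 4 weeks (4wk) takes the mouse submandibular gland through weaning, and was followed here by RNA-seq of 2 samples at each age. Genes were taken when they reached 1 FPKM or more in at least 1 of these 4 samples, which left 13373 of the 23364 genes in the files. FPKM, the unit of all levels below, scales the reads on a gene by the length of the gene and by the reads of the sample. Samples were dissected submandibular glands of unmodified and untreated C57BL/6 mice. Mice at 4wk were male by the methods of the study, those at P5 are of unascertained sex in the methods and called male elsewhere in the study, and no pooling of animals is stated for either age. Eif2s3y, a gene of the Y chromosome, was read in all 4 samples, at 35.1 and 29.7 FPKM at P5 and 14.7 and 21.1 FPKM at 4wk. The series holds 13 samples over 6 time points, and E18.5, the embryo just before birth, and 12wk are used below only as context.

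The submandibular gland makes saliva in acini, whose serous and mucous cells secrete water, salt and protein, and modifies it in ducts, which take back salt and add proteins of their own. In rodents the neonatal gland is made of proacinar cells with secretory products that differ from those of the adult, and the acinar cells of the adult arise in the weeks after birth. The granular convoluted tubules, a duct segment of rodents that stores kallikreins and growth factors, form around puberty and are larger in males. Nothing in whole-gland RNA can separate fewer cells of a type from less RNA per cell, and this holds for every result below.

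The 4wk samples were the shallowest of the series, with 5817293 and 7957918 reads on genes against 48314162 and 42168626 at P5. A single read on a kilobase stood for 0.172 and 0.126 FPKM at 4wk and for 0.0207 and 0.0237 FPKM at P5. The 2 P5 samples correlated across genes with r = 0.9916 and differed by a factor of 2 or more (log2 of FPKM + 1) for 103 genes, while the 2 4wk samples gave r = 0.9531 and 1014 such genes. Between the ages, r was between 0.8679 and 0.8824, and genes are not independent replicates in any of these values. Before the results, 1 feature of the libraries has to be given. Replicate 1 of each age held more RNA of fat and of skeletal muscle than replicate 2. The summed level of 18 adipocyte genes was 1908 and 593 FPKM at P5 and 1488 and 140.2 FPKM at 4wk, and that of 32 skeletal muscle genes was 38.6 and 18.53 FPKM at P5 and 84.0 and 5.82 FPKM at 4wk. Ucp1, the uncoupling protein of brown fat, was at 311 and 59.2 FPKM at P5 and 106 and 0 FPKM at 4wk. Leaving out 1 library moved the counts of many lists, and this is given beside some lists but not all.

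A few secretory genes filled much of the RNA at 4wk. The 10 highest genes took 60.3% and 61.1% of the summed FPKM at 4wk, and 29.2% and 31.1% at P5. Secretoglobins, small secreted proteins that include the salivary androgen-binding proteins, went from 3.37% and 3.41% to 29.3% and 30.3%. Kallikreins of the Klk1 group went from 0.111% and 0.115% to 5.90% and 7.88%. Smgc and Muc19 together went from 8.15% and 8.77% to 0.0183% and 0.0161%. Cytosolic ribosomal proteins went from 15.0% and 16.2% to 4.55% and 4.45%, and the share of all other genes fell from 53.5% and 50.3% to 27.6% and 24.3%. The plot of these shares shows that the classes were alike in the 2 samples of each age.

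**Figure D1:**
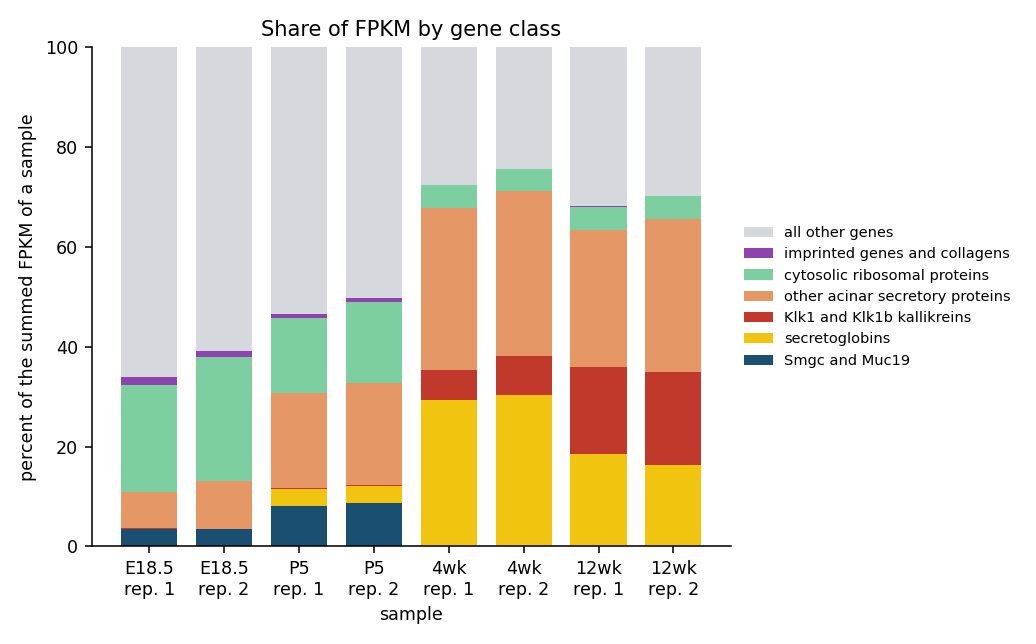
Share of the summed FPKM (percent, y axis) taken by 7 classes of genes in each of 8 samples, with E18.5 and 12wk beside P5 and 4wk. At 4wk the secretoglobins took 29.3% and 30.3% and ribosomal proteins 4.55% and 4.45%, against 3.37% and 3.41% and 15.0% and 16.2% at P5.

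FPKM are relative to a total, so that a rise of the highest genes lowers the values of all others. The median log2 fold change of all genes tested, 4wk over P5, was -0.579 on the deposited scale, and -0.032 once each sample was rescaled by the median over genes of its ratio to the geometric mean over samples. A gene was therefore counted as gained or lost only when it passed on both scales, in the same direction. Passing meant an adjusted p under 0.1 (limma, fitted over all 13 samples) together with a change of 1 or more on the log2 scale. The study calls its samples biological replicates, and the labels do not say which animals gave the 2 samples of an age. The p-values rest on the spread between samples of the same age, pooled over all 13 samples, not on P5 and 4wk alone. The embryo samples among them were pooled from several animals by the methods of the study. For each gene this spread was taken as equal at all ages. The P5 samples differed by a factor of 2 or more for 103 genes, and the 4wk samples for 1014. In all, 320 genes were gained and 1281 were lost, which is 2.39% and 9.58% of the genes tested. A further 1957 genes were lower on the deposited scale only, and 610 were higher on the rescaled scale only. By scale, 2.4% of genes were higher and 24.2% lower as deposited, against 6.95% and 9.58% rescaled. On the deposited scale 91.0% of the calls were lower at 4wk, and on the rescaled scale 57.9%. For comparison under the same rule, 2.2% of these genes were higher and 1.76% lower at P5 than at E18.5, and 2.55% higher and 2.71% lower at 12wk than at 4wk.

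Gains were fewer than losses, in part because of the rule. All 1281 genes lower on the rescaled scale passed on the deposited one too, while 610 of the 930 higher ones did not. Of the gained genes, 95 were under 1 FPKM in both P5 samples and 216 were at 1 FPKM or more in all 4 samples. Of the lost genes, 554 were under 1 FPKM in both 4wk samples and 466 were at 1 FPKM or more in all 4. Depth limits what can be said of the former. No read was found in either 4wk sample for 155 of the lost genes, and 1 to 3 reads for another 88. At the rate of P5, more than 3 reads were to be read for 121 of these 155. Small RNA genes or genes under 300 bases made up 106 of the 1281, 85 of them with no read at 4wk, and are not described further. Log2 fold changes are of FPKM + 1, and so understate the change of low genes. The plot of both ages shows these gains and losses against the line of equal level.

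**Figure D2:**
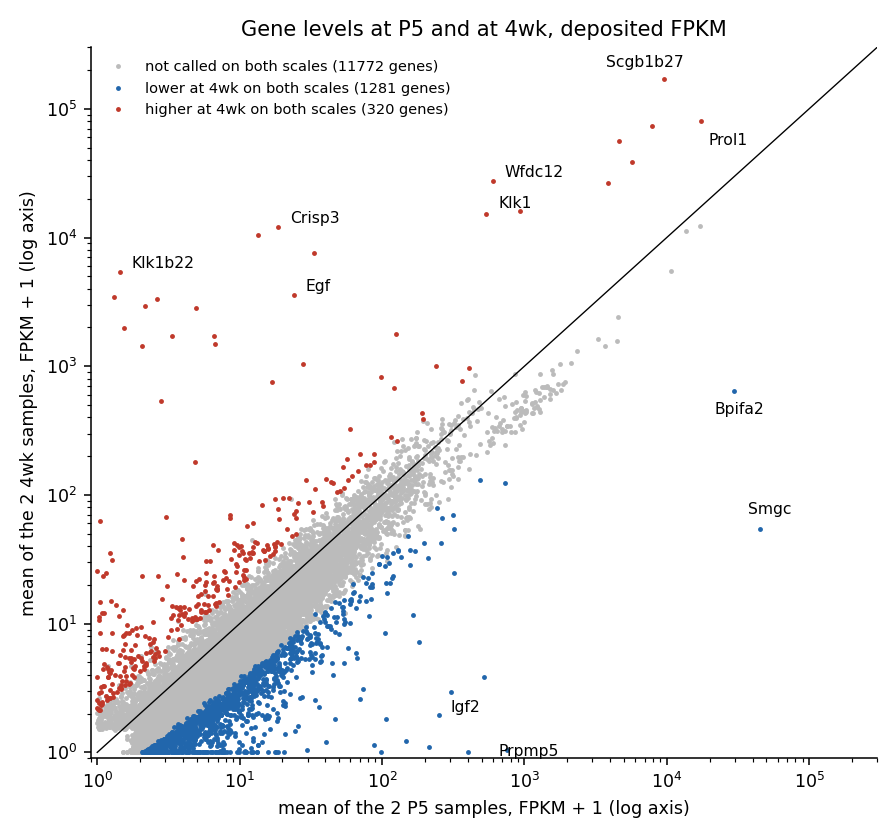
Mean level of each tested gene at P5 (x axis) and 4wk (y axis), as FPKM + 1 on log axes, with the line of equal level. The 320 gained genes are red, the 1281 lost genes blue and the others grey. Klk1b22, the steepest gain, went from a mean of 0.435 to 5399.6 FPKM, and Smgc from 45146 to 53.1 FPKM.

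Kallikreins were the steepest gains. Tissue kallikreins of the mouse are serine proteases encoded by Klk1 and its Klk1b copies, which lie side by side on chromosome 7 (mm9, chr7:51200382-51484987, plus strand). All 15 members in the files were tested and 14 were gained, 93.3% against 2.39% of all genes. The median of the 15 was 9.09 on the deposited scale, against -0.579 over all genes. Klk1b22 was at 0.544 and 0.326 FPKM at P5 and 4155 and 6644 FPKM at 4wk, a log2 fold change of 11.84 ± 0.20 (SE) (adjusted p = 1.92e-11). The 2 P5 values rest on 32 reads in all and the 2 4wk values on 61559. Klk1b16 was at 0.330 and 0.275 FPKM at P5 and 2224 and 4686 FPKM at 4wk. Both genes were under 1 FPKM in each P5 sample and above 1000 FPKM in each 4wk sample. Klk1b9, the epidermal growth factor-binding kallikrein, was higher already at P5, at 11.51 and 13.3 FPKM at P5 and 8131 and 12683 FPKM at 4wk. Klk1 itself, the true tissue kallikrein that releases kinins, was the highest member at P5, at 524 and 555 FPKM at P5 and 16222 and 14472 FPKM at 4wk, a log2 fold change of 4.83 ± 0.25 (SE) (adjusted p = 1.3e-07). Klk1 was also the only one of these 4 genes that was lower at 12wk than at 4wk, with a mean of 3525 FPKM against 19363 for Klk1b22, 13839.6 for Klk1b16 and 27692 for Klk1b9. Klk1b8, Klk1b21, Klk1b4, Klk1b1, Klk1b3 and Klk1b5 gained between 8.94 and 10.33 on the deposited scale. Klk1b26, the member that was not gained, was at 0 and 0 FPKM at P5 and 0 and 2.02 FPKM at 4wk, with 14 reads at 4wk and none at P5.

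The copies are alike enough that reads can fit several of them, and such reads were not counted, so that the levels of single copies are uncertain. Their promoters are alike too. The 120 bases before the annotated start of 4 copies are shown here because these genes rose together (RefSeq, GRCm38.p6, plus strand of chromosome 7, 5′ to 3′). Capitals mark TTTAAA, the TATA-like motif nearest to the start.
Klk1b22: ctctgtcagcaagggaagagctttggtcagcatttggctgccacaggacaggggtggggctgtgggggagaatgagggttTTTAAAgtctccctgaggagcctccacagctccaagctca
Klk1b16: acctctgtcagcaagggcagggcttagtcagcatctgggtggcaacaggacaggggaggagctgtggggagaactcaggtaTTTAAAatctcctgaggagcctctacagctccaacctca
Klk1b9: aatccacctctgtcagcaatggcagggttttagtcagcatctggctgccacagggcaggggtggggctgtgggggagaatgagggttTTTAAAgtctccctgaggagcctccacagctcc
Klk1b8: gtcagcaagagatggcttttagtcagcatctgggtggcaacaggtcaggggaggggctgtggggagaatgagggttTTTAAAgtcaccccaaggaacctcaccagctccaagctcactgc
The windows are chr7:44112553-44112672, chr7:44137170-44137289, chr7:43975941-43976060 and chr7:43950546-43950665. Between pairs, 86.1% to 93.8% of the aligned bases were identical. TTTAAA, which reads the same on both strands, is found in 5.2% of all 32851 such windows of 120 bases in the table of promoters.

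Egf of the granular ducts rose with the kallikreins. Egf, epidermal growth factor, was at 21.3 and 24.8 FPKM at P5 and 2883 and 4322 FPKM at 4wk, a log2 fold change of 7.203 ± 0.24 (SE) (adjusted p = 2.62e-09). The 2 samples of an age lay close together against the distance between ages, and the 12wk mean was 10666 FPKM. Of 7 tested members of the list of duct growth factors, 2 were gained and 1 was lost, and 2 were lost without either 4wk replicate. The lost one on all 4 libraries was Fgf2, a fibroblast growth factor, at 1.13 and 1.33 FPKM at P5 and 0 and 0 FPKM at 4wk, at least 3.91-fold lower if a floor of 3 reads over both 4wk samples is set. Of the tested duct growth factors 28.6% were gained and 14.3% lost on all 4 libraries, against 2.39% and 9.58% of all genes. Renin, a product of these ducts in some strains, was not read, with Ren1 at 0 reads in all 4 samples.

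Some genes of hormone action were gained in the same step. Granular ducts are known to respond to androgen, thyroid hormone and glucocorticoid. Of 26 tested members of the list of hormone receptors and enzymes, 5 were gained and none was lost on both scales. The share gained was 19.2% against 2.39% of all genes. On the deposited scale 6 were called lower, and 11 of the 26 were above 0. Hsd11b1, which regenerates active glucocorticoid, was at 2.29 and 1.81 FPKM at P5 and 77.9 and 55.1 FPKM at 4wk, a log2 fold change of 4.45 ± 0.28 (SE) (adjusted p = 6.3e-07). Dio1, which activates thyroid hormone, was at 1.27 and 1.34 FPKM at P5 and 7.85 and 5.66 FPKM at 4wk, with a 12wk mean of 0.150 FPKM. Fkbp5, a target of the glucocorticoid receptor, was at 7.09 and 6.94 FPKM at P5 and 19.4 and 24.0 FPKM at 4wk. All 3 genes were higher in each 4wk sample than in either P5 sample, as were 318 of the 320 gained genes. Calls by size of change and p-value leave little room for overlap, so this adds no support. Klf9 was gained too, another target of glucocorticoid and thyroid hormone. Tsc22d3 and Per1 of the same list were tested and not called on both scales. Without 4wk replicate 1, 3 members were gained, and Klf9 fell short at 0.98 on the deposited scale.

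Crisp3 and Wfdc12 were among the steep gains outside the kallikreins. Crisp3, a cysteine-rich secretory protein, was at 16.1 and 19.3 FPKM at P5 and 10407 and 13845 FPKM at 4wk, a log2 fold change of 9.33 ± 0.19 (SE) (adjusted p = 3.58e-11), and lies on chromosome 17 (mm9, chr17:40358726-40456156 together with Crisp1, minus strand). Wfdc12, a whey acidic protein family protease inhibitor, was at 515 and 688 FPKM at P5 and 25825 and 28889 FPKM at 4wk, a log2 fold change of 5.52 ± 0.27 (SE) (adjusted p = 6.25e-08). Both are on the list of acinar and proacinar secretory proteins. Of its 25 tested members, 9 were gained and 5 lost, 36.0% and 20.0% against 2.39% and 9.58% of all genes. This list thus moved both ways, with a median of -0.318 on the deposited scale and 0.355 on the rescaled one. Muc13, a transmembrane mucin, was at 0.230 and 0.232 FPKM at P5 and 31.1 and 38.3 FPKM at 4wk. Both P5 samples were thus under 1 FPKM.

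Prol1, Car6 and Pip were high at P5 already and rose several-fold. Prol1, the major mucin of the adult gland (also named Muc10), was at 15940.3 and 18702 FPKM at P5 and 79119 and 80967 FPKM at 4wk, a log2 fold change of 2.21 ± 0.26 (SE) (adjusted p = 5.14e-05). Car6, the secreted carbonic anhydrase, was at 5403 and 5920.0 FPKM at P5 and 37319 and 39954 FPKM at 4wk, a log2 fold change of 2.77 ± 0.19 (SE) (adjusted p = 1.14e-06). Pip, the prolactin-induced protein, was at 7522 and 8215 FPKM at P5 and 72414 and 73391 FPKM at 4wk. In these 3 genes the 2 samples of each age lay close together, and all 3 were among the highest genes at 4wk. Amy1, salivary amylase, was called as well, but remained low at 2.86 and 1.95 FPKM at P5 and 10 and 11.52 FPKM at 4wk. It reached a mean of 3492 FPKM only at 12wk. Its log2 fold change was 1.80 ± 0.72 (SE) (adjusted p = 0.0484), and it was no longer called with any 1 of the 4 libraries left out, at 1.99 without P5 replicate 1, 1.60 without P5 replicate 2, 1.89 without 4wk replicate 1 and 1.70 without 4wk replicate 2 on the deposited scale. With voom its adjusted p was 0.140 on the deposited scale, and it was not called. The other gained members of the list were 2310057J18Rik, a gene named by its clone, and Azgp1, a zinc-binding glycoprotein, at 8.71 and 8.99 FPKM at P5 and 21.3 and 18.6 FPKM at 4wk. Without 4wk replicate 1, Azgp1 was at 0.9965 on the deposited scale and not called.

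Secretoglobins held the most abundant RNA. Of 21 members in the files 11 were tested, and 6 were gained and 1 was lost, with a median of 1.57 on the deposited scale. The shares of those tested are 54.5% and 9.09%, against 2.39% and 9.58% of all genes. Scgb1b27, the first gene at 4wk, was at 9645 and 9534 FPKM at P5 and 164081 and 176275 FPKM at 4wk, a log2 fold change of 4.15 ± 0.18 (SE) (adjusted p = 2.08e-08). Scgb2b27, which encodes the kind of subunit that pairs with it, was at 4617 and 4638 FPKM at P5 and 53139 and 58631 FPKM at 4wk. Scgb1b30 was at 21.0 and 32.4 FPKM at P5 and 856 and 1205 FPKM at 4wk. These genes have many near-copies, so that reads are lost to multiple mapping here too. The lost member was Scgb2b7, at 1.16 and 1.24 FPKM at P5 and 0 and 0 FPKM at 4wk, at least 2.84-fold lower by the floor of 3 reads over both 4wk samples.

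**Figure D3:**
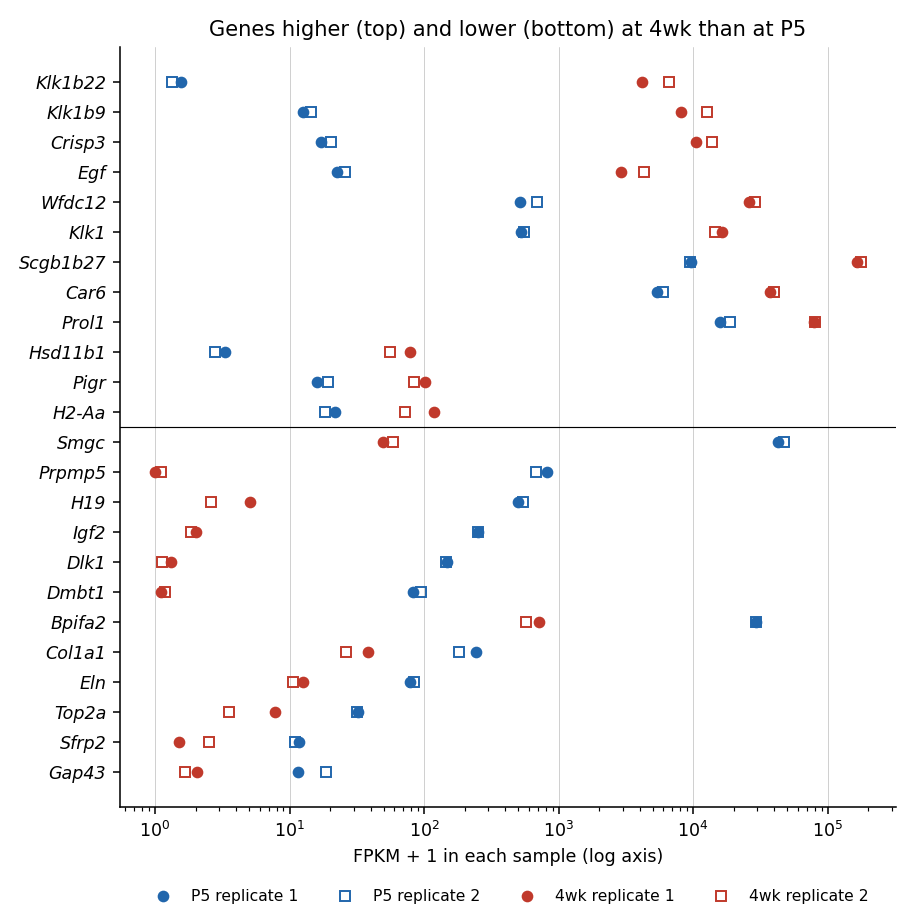
Level of 24 genes in each sample, as FPKM + 1 on a log axis (circles replicate 1, squares replicate 2, blue P5, red 4wk), with 12 gained genes above the line and 12 lost genes below it. The genes were picked among those called, and in this plot Klk1b22 and Smgc moved the farthest in each direction on the scale of FPKM + 1.

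The largest loss on the log2 scale of FPKM + 1 was Smgc, the submandibular gland protein C of neonatal proacinar cells. It was the first gene at P5, at 42935 and 47357 FPKM at P5 and 48.2 and 58.1 FPKM at 4wk, a log2 fold change of -9.71 ± 1.35 (SE) (adjusted p = 0.000141). The standard error comes from the spread within all 6 time points. The mean was 45146 ± 3127 FPKM at P5 and 53.1 ± 6.98 FPKM at 4wk (SD, n = 2), which is 849-fold lower. Smgc shares its locus with Muc19, a gel-forming mucin of mucous cells (Smgc in mm9, chr15:91668696-91691869, plus strand). Muc19 was at 74.9 and 43.3 FPKM at P5 and 103 and 82.3 FPKM at 4wk and was called higher on the rescaled scale only (adjusted p = 0.214 deposited and 0.0591 rescaled). Reads on more than 1 gene were dropped, which touches both. The 120 bases before the start of Smgc are given because Smgc was the first gene at P5, with TATAAA in capitals (RefSeq, GRCm38.p6, chr15:91838208-91838327, plus strand). TATAAA on either strand is found in 6.34% of the windows of this length.
Smgc: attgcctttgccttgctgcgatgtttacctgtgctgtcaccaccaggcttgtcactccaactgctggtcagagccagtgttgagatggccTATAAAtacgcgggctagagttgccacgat

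Other products of neonatal secretory cells went with it. Prpmp5, a proline-rich protein, was at 821 and 679 FPKM at P5 and 0 and 0.0979 FPKM at 4wk, which is 87700 reads at P5 and 1 read at 4wk, a ratio of 13352 with a 95% counting interval from 2396 to 527364. Prb1, another proline-rich protein, was at 227 and 198 FPKM at P5 and 0.212 and 0 FPKM at 4wk, with 2 reads at 4wk and a ratio of 2383 (95% counting interval 659.7 to 19680.2). Intervals and floors here cover counting error only. Bpifa2, the parotid secretory protein, which neonatal submandibular cells also make, was at 29423 and 29524 FPKM at P5 and 714 and 567 FPKM at 4wk, a log2 fold change of -5.53 ± 0.76 (SE) (adjusted p = 0.000137). Unlike the other 3, Bpifa2 had a high mean again at 12wk, of 18782 FPKM. The summed level of the mucosal defence genes, Bpifa2 among them, was 19953 and 43814 FPKM in the 2 12wk samples. The mean may therefore not stand for both samples. Dmbt1, a salivary scavenger receptor protein that binds bacteria, was at 81.4 and 93.1 FPKM at P5 and 0.110 and 0.181 FPKM at 4wk, a log2 fold change of -6.26 ± 0.17 (SE) (adjusted p = 2.47e-10). The fifth lost member of the acinar list was Prh1, a proline-rich protein as well. Of the abundant Dcpp secretory proteins, near-copies of each other whose single levels are uncertain, these were not called, with Dcpp1 at 10219.6 and 11339 FPKM at P5 and 5266 and 5803 FPKM at 4wk and Dcpp3 at 15143 and 18896 FPKM at P5 and 11595 and 13111 FPKM at 4wk.

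Growth genes of the fetus were lost as a group. Imprinted genes are expressed from 1 parental copy, and many of them control growth before birth. Of 31 tested members of the list of imprinted and fetal growth genes, 24 were lost and none was gained. The share lost was 77.4% against 9.58% of all genes, and the median was -2.87 (deposited) and -2.58 (rescaled). The count was again 24 with each of the 4 libraries left out in turn. Igf2, the fetal growth factor, was at 248 and 252 FPKM at P5 and 1.01 and 0.860 FPKM at 4wk, a log2 fold change of -7.02 ± 0.14 (SE) (adjusted p = 2.22e-11). H19, the noncoding RNA beside it on chromosome 7 (mm9, chr7:149761434-149852721 for the pair), was at 499 and 538 FPKM at P5 and 4.08 and 1.59 FPKM at 4wk. Dlk1, a Notch ligand-like protein of progenitor cells, was at 147 and 144 FPKM at P5 and 0.322 and 0.131 FPKM at 4wk, and Meg3, a noncoding RNA of the same cluster on chromosome 12, at 118 and 93.8 FPKM at P5 and 0.839 and 0.808 FPKM at 4wk. Cdkn1c, an imprinted inhibitor of the cell cycle, was at 295 and 318 FPKM at P5 and 2.04 and 1.81 FPKM at 4wk. In all 5 genes each 4wk sample was under 5 FPKM while each P5 sample was above 90 FPKM, and their E18.5 means of 427, 1456, 408, 80.8 and 403 FPKM lay above both P5 samples except for Meg3, which lay below them.

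Cell cycle genes fell with them. Of 69 tested members, 45 were lost and none gained, 65.2% lost against 9.58% of all genes. Their median was -1.8 (deposited) and -1.38 (rescaled). Mki67, a marker of cycling cells, was at 22.4 and 20.9 FPKM at P5 and 8.84 and 2.57 FPKM at 4wk, a log2 fold change of -1.93 ± 0.36 (SE) (adjusted p = 0.000963). Top2a, which untangles DNA at division, was at 31.1 and 30.7 FPKM at P5 and 6.79 and 2.53 FPKM at 4wk. Cenpa, the histone of centromeres, was at 20.2 and 18.1 FPKM at P5 and 1.16 and 1.504 FPKM at 4wk. Ccnb2, a cyclin of mitosis, was at 19.6 and 19.3 FPKM at P5 and 1.78 and 2.202 FPKM at 4wk, and Mcm3, part of the helicase that replicates DNA, at 23.7 and 24.1 FPKM at P5 and 2.14 and 3.53 FPKM at 4wk. All 5 were lower in each 4wk sample than at P5, as were 1277 of the 1281 lost genes, which the rule for calls makes likely by itself. Replicate 1 of 4wk held more of Mki67 and Top2a than replicate 2. Mki67 was not called without 4wk replicate 2, at -1.20 on the deposited and -0.68 on the rescaled scale. Without 4wk replicate 1, 59 members were lost, and without 4wk replicate 2, 30.

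Genes of the extracellular matrix were lost. Collagens build the fibres of connective tissue. Of 34 tested collagen genes 23 were lost and none gained, 67.6% lost against 9.58% of all genes. Their median was -2.08 (deposited) and -1.57 (rescaled). Col1a1, of fibrillar collagen, was at 241 and 180.0 FPKM at P5 and 37.0 and 25.4 FPKM at 4wk, a log2 fold change of -2.73 ± 0.28 (SE) (adjusted p = 1.97e-05). Col9a3, Col11a1 and Col26a1 had the largest changes, Col9a3 being at 18.7 and 16.7 FPKM at P5 and 0.906 and 0.795 FPKM at 4wk. Col11a1 was not called with weights from recovered reads (voom), with an adjusted p of 0.136 on the deposited and 0.261 on the rescaled scale. Of 52 tested matrix proteins and enzymes of matrix turnover, 26 were lost and none gained. Eln, elastin, was at 77.0 and 83.1 FPKM at P5 and 11.55 and 9.54 FPKM at 4wk, a log2 fold change of -2.82 ± 0.24 (SE) (adjusted p = 5.33e-06). Fn1, fibronectin, was at 61.4 and 52.0 FPKM at P5 and 6.81 and 4.04 FPKM at 4wk, and tenascin C was lost too. Of 24 tested fibroblast and mesenchyme markers 13 were lost and 1 gained, 54.2% and 4.17% against 9.58% and 2.39% of all genes. The summed level of this list went from 2245 and 2048 FPKM to 833.6 and 759 FPKM. The gained one was Dpep1, a membrane dipeptidase, at 5.43 and 5.53 FPKM at P5 and 19.8 and 19.7 FPKM at 4wk. Of 30 tested endothelial and pericyte genes 7 were lost and 1 gained, 23.3% and 3.33% against 9.58% and 2.39% of all genes. Without P5 replicate 1, 4 were lost, and 10 without P5 replicate 2 or without 4wk replicate 1. The summed level of the list was 376 and 286 FPKM at P5 and 186 and 155 FPKM at 4wk, with Cldn5 of endothelial tight junctions at 27.5 and 15.7 FPKM at P5 and 2.55 and 1.15 FPKM at 4wk. Vegfa, the growth factor of vessels that epithelium makes, was gained, at 28.7 and 18.9 FPKM at P5 and 48.9 and 49.0 FPKM at 4wk, but not without P5 replicate 2, at 0.75 on the deposited scale.

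Some genes of the signals of gland morphogenesis were lost. Wnt, FGF, hedgehog, ectodysplasin and Notch signals shape branching and duct fate in the embryo. Of 45 tested Wnt pathway genes 12 were lost and none gained, 26.7% lost against 9.58% of all genes. Their median was -0.986 (deposited) and -0.625 (rescaled), against -0.579 and -0.032 over all genes. Among ligands, Wnt5b was at 8.05 and 8.58 FPKM at P5 and 2.07 and 1.33 FPKM at 4wk and Wnt10a at 2.45 and 2.00 FPKM at P5 and 0 and 0.705 FPKM at 4wk. Wnt4, another ligand, was not called on both scales, at 12.2 and 12.7 FPKM at P5 and 27.8 and 21.6 FPKM at 4wk. Lost receptors were Fzd2, Ror2 and Lgr6, with Fzd2 at 5.66 and 5.67 FPKM at P5 and 2.23 and 0.416 FPKM at 4wk. Secreted inhibitors were lost as well, with Sfrp2 at 10.8 and 9.99 FPKM at P5 and 0.515 and 1.51 FPKM at 4wk and Sfrp1 at 15.1 and 16.6 FPKM at P5 and 2.28 and 4.28 FPKM at 4wk, beside Sfrp4 and Dkk3. Among nuclear effectors, Tcf7l1 was at 11.3 and 10.7 FPKM at P5 and 3.64 and 1.40 FPKM at 4wk, and Tcf7 was lost too. Ctnnb1, beta-catenin, was not called, at 204 and 219.7 FPKM at P5 and 138 and 105 FPKM at 4wk. Axin2, a common target of the pathway, was lower on the deposited scale only, at 3.12 and 2.72 FPKM at P5 and 0.888 and 0.472 FPKM at 4wk. Without 4wk replicate 1, Wnt10a was at -0.91 on the deposited scale and not called. Without 4wk replicate 2, Fzd2 and Tcf7l1 were at -0.62 and -0.90 on the rescaled scale and not called. More Wnt genes were lost without 4wk replicate 2 than on all 4 libraries, although Fzd2 and Tcf7l1 were not. With a pseudocount of 0.1, 22 Wnt genes were lost.

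Of 24 tested Notch pathway genes 6 were lost and none gained, 25.0% lost against 9.58% of all genes. Notch3, a receptor of vessel walls, was at 11.7 and 8.998 FPKM at P5 and 2.58 and 1.34 FPKM at 4wk, and Notch1 was not called, at 6.50 and 5.34 FPKM at P5 and 4.00 and 2.01 FPKM at 4wk. Dll4, a ligand of endothelium, was at 2.51 and 1.79 FPKM at P5 and 0.199 and 0.401 FPKM at 4wk. Nrarp, a target and inhibitor of the pathway, was at 6.49 and 4.83 FPKM at P5 and 0.534 and 0.586 FPKM at 4wk, and Lfng, which adds sugar to Notch, at 16.4 and 16.0 FPKM at P5 and 4.44 and 5.01 FPKM at 4wk. Dlk1 and Dlk2 complete the 6. Hes1, a main target, was not called, at 25.5 and 23.2 FPKM at P5 and 12.2 and 11.4 FPKM at 4wk. Dll4 was not called without P5 replicate 1 or without 4wk replicate 1, at -0.91 and -0.87 on the rescaled scale, and Lfng neither without P5 replicate 2 nor without 4wk replicate 1, at -0.99 and -0.84. With a pseudocount of 0.1, 13 Notch genes were lost. Of 31 tested members of the FGF, hedgehog and ectodysplasin list 8 were lost and 1 gained. These shares are 25.8% and 3.23%, against 9.58% and 2.39% of all genes. Spry1, an inhibitor that FGF signals induce, was at 25.7 and 23.0 FPKM at P5 and 3.59 and 4.49 FPKM at 4wk, and Kit, a receptor of progenitor cells, at 23.2 and 24.5 FPKM at P5 and 4.58 and 5.51 FPKM at 4wk. Fgf9 was gained, at 0.0800 and 0.0859 FPKM at P5 and 0.665 and 2.09 FPKM at 4wk, and was not called without 4wk replicate 2, at 0.62 on the deposited scale.

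**Figure D4:**
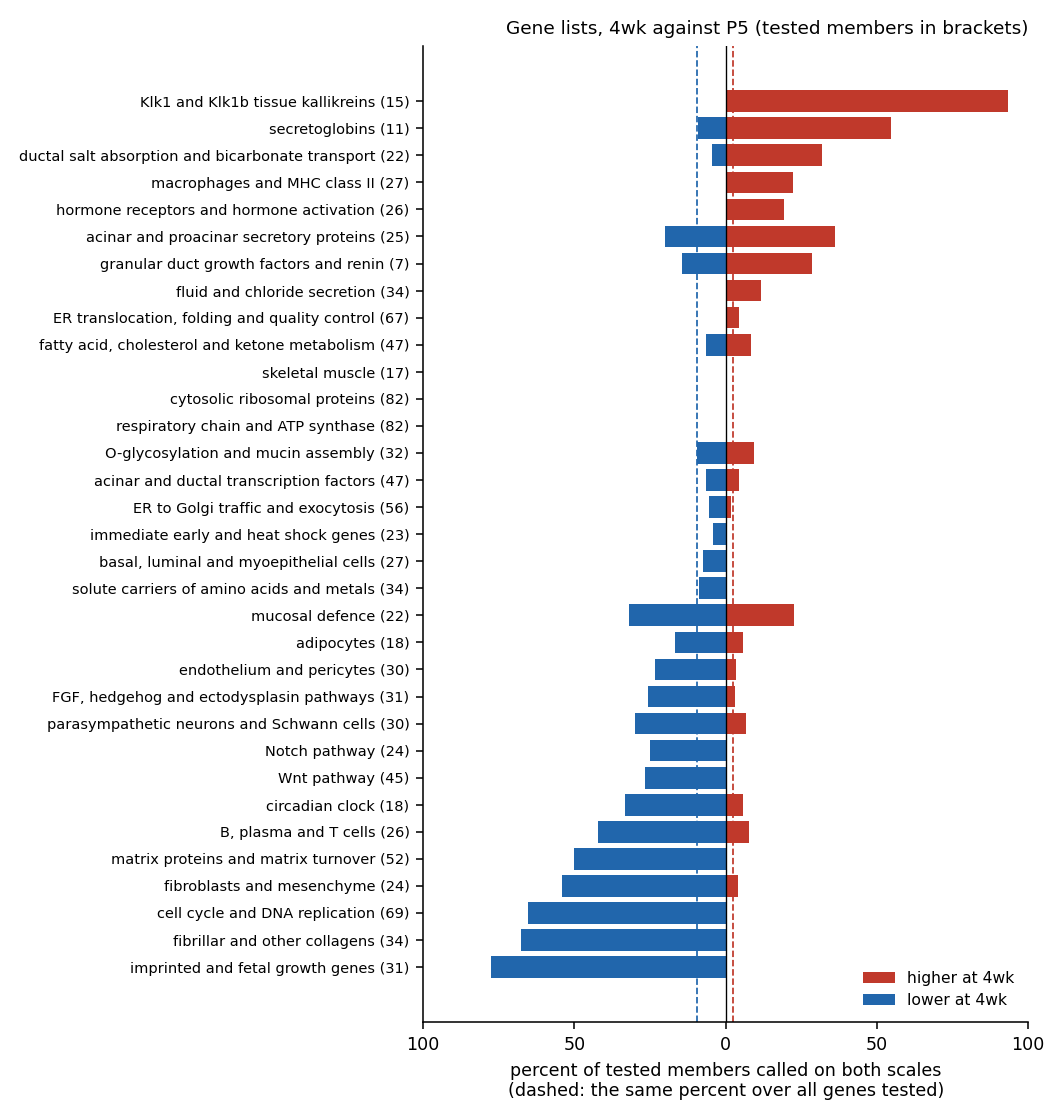
Percent of the tested members of each gene list that were higher (red) or lower (blue) at 4wk on both scales, for lists with at least 7 tested members, with dashed lines at the 2.39% and 9.58% of all genes tested. Kallikreins and secretoglobins stand at the top with 93.3% and 54.5% higher, and imprinted genes, collagens and cell cycle genes at the bottom with 77.4%, 67.6% and 65.2% lower.

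Acinar cells secrete fluid through a sodium, potassium and chloride cotransporter, a chloride channel and a water channel. Of 34 tested members of the list of fluid and chloride secretion 4 were gained, which is 11.8% against 2.39% of all genes, and none was lost on both scales. Aqp5, the water channel, was at 184 and 177 FPKM at P5 and 262 and 215 FPKM at 4wk, Slc12a2, the cotransporter, at 97.9 and 111 FPKM at P5 and 179 and 184 FPKM at 4wk, and Ano1, the chloride channel, at 37.8 and 36.8 FPKM at P5 and 52.0 and 56.3 FPKM at 4wk. None of these 3 passed on both scales, though Slc12a2 and Ano1 were higher on the rescaled one. Chrm3, the muscarinic receptor that triggers salivation, was at 8.86 and 8.94 FPKM at P5 and 6.13 and 10.04 FPKM at 4wk, and its 4wk values lay on both sides of P5. Of the gained members, Adra1a, an adrenergic receptor, was at 1.66 and 1.23 FPKM at P5 and 7.94 and 10.6 FPKM at 4wk. Car2, cytosolic carbonic anhydrase, was at 12.1 and 10.3 FPKM at P5 and 24.4 and 45.7 FPKM at 4wk. Atp2a3, a calcium pump of the endoplasmic reticulum, was gained as well.

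Some genes of ductal transport were gained. Ducts take back sodium through the epithelial channel ENaC and secrete bicarbonate and potassium. Of 22 tested members of this list 7 were gained and 1 was lost, 31.8% and 4.55% against 2.39% and 9.58% of all genes. Their median was 0.556 (deposited) and 1.11 (rescaled). Scnn1b, a subunit of ENaC, was at 8.78 and 9.06 FPKM at P5 and 25.4 and 40.9 FPKM at 4wk, a log2 fold change of 1.74 ± 0.24 (SE) (adjusted p = 0.000118). Scnn1a, another subunit, was not called, at 10.1 and 10.7 FPKM at P5 and 8.45 and 12.97 FPKM at 4wk. Sgk1, a kinase that keeps ENaC at the membrane, was at 10.9 and 6.39 FPKM at P5 and 34.4 and 45.5 FPKM at 4wk. Kcnj16, a potassium channel, was at 2.18 and 3.09 FPKM at P5 and 20.0 and 26.8 FPKM at 4wk, a log2 fold change of 2.74 ± 0.19 (SE) (adjusted p = 1.3e-06). Cftr, the chloride channel of ducts, was not called, at 5.55 and 6.56 FPKM at P5 and 7.55 and 7.495 FPKM at 4wk. Ascl3, a transcription factor that marks a kind of ductal cell, was at 9.12 and 11.2 FPKM at P5 and 21.2 and 28.7 FPKM at 4wk. Atp6v1b1, a proton pump subunit, was lost, at 34.3 and 45.3 FPKM at P5 and 7.94 and 9.19 FPKM at 4wk, a call that was missed on the rescaled scale with any 1 of the 4 libraries left out, at -1.70 and -1.23 without P5 replicates 1 and 2 and -1.27 and -1.66 without 4wk replicates 1 and 2. With voom its adjusted p was 0.185 on the rescaled scale. Ascl3 was at 0.9965 on the deposited scale without 4wk replicate 2, and not called.

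Few transcription factors of acini and ducts were called on both scales. Of 47 tested members 2 were gained and 3 lost, which is 4.26% and 6.38% against 2.39% and 9.58% of all genes. Esrrg, an orphan nuclear receptor, was gained, at 9.26 and 9.69 FPKM at P5 and 34.9 and 34.4 FPKM at 4wk, together with Ascl3, and 1 was gained without 4wk replicate 2. Sox2, a progenitor factor, was lost, at 7.98 and 7.34 FPKM at P5 and 1.05 and 2.30 FPKM at 4wk, and so were Etv4, a target of FGF signals, at 2.47 and 2.32 FPKM at P5 and 0.221 and 0.161 FPKM at 4wk, and Gata6, at 2.00 and 1.70 FPKM at P5 and 0 and 0.118 FPKM at 4wk. Gata6 had 3 reads at 4wk, a ratio of 27.3 (95% counting interval 9.27 to 133). Sox2 was not called without 4wk replicate 1, at -0.80 on the rescaled scale. Bhlha15, the acinar factor Mist1, passed on the rescaled scale but at 0.99 not quite on the deposited one, with 76.8 and 79.5 FPKM at P5 and 187 and 131 FPKM at 4wk. Xbp1, of the secretory stress response, was at 191 and 186 FPKM at P5 and 186 and 168 FPKM at 4wk. Elf5 was at 52.9 and 54.5 FPKM at P5 and 82.0 and 79.2 FPKM at 4wk, Ehf at 145 and 161 FPKM at P5 and 177 and 161 FPKM at 4wk, and Sox10 at 30.4 and 28.0 FPKM at P5 and 42.9 and 26.6 FPKM at 4wk. Sox9 was at 19.2 and 19.6 FPKM at P5 and 7.13 and 7.33 FPKM at 4wk, and was called only on the deposited scale.

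Few genes of the secretory machinery were called on both scales. Of 67 tested genes of translocation, folding and quality control in the endoplasmic reticulum 3 were gained and none lost. The share gained was 4.48% against 2.39% of all genes. Their median was 0.052 on the deposited scale, against -0.579 over all genes. On the rescaled scale 65 of the 67 were above 0 and 15 were called higher. Hspa5, the chaperone BiP, was not called, at 291 and 319 FPKM at P5 and 377 and 323 FPKM at 4wk. The gained genes were Ero1lb, a disulfide oxidase, at 9.18 and 9.19 FPKM at P5 and 38.3 and 40.1 FPKM at 4wk, Dnajb9, a cochaperone, at 18.8 and 18.1 FPKM at P5 and 46.8 and 34.0 FPKM at 4wk, and Derl3, of protein disposal, at 55.9 and 50.6 FPKM at P5 and 109.8 and 116 FPKM at 4wk. Dnajb9 was at 0.85 on the deposited scale without 4wk replicate 1, and Derl3 at 0.9974 without P5 replicate 2, and neither was then called. Of 56 tested genes of vesicle traffic 1 was gained, Stx7, at 28.2 and 30.7 FPKM at P5 and 82.7 and 91.8 FPKM at 4wk, and 3 were lost, with 2 gained and 6 lost without P5 replicate 1. On all 4 libraries 1.79% of the traffic genes were gained and 5.36% lost, against 2.39% and 9.58% of all genes. Scg5, of neuroendocrine granules, was at 1.86 and 4.17 FPKM at P5 and 0 and 0 FPKM at 4wk, at least 16.54-fold lower by the floor of 3 reads over both 4wk samples. Of 32 tested genes of O-glycosylation 3 were gained and 3 lost, 9.38% each against 2.39% and 9.58% of all genes, and without 4wk replicate 2, 2 were gained and 6 lost. C1galt1, which makes the core of mucin sugars, was at 5.93 and 5.37 FPKM at P5 and 23.6 and 21.5 FPKM at 4wk, while Agr2, needed for mucin assembly, fell to 36.9 and 31.7 FPKM at 4wk from 114 and 122 FPKM at P5.

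Calls of ribosomal and mitochondrial genes depended on the scale. Of 82 tested cytosolic ribosomal proteins 57 were lower on the deposited scale and none on the rescaled one, with medians of -1.14 and -0.479. Of 82 tested genes of the respiratory chain and ATP synthase none was called on both scales, 13 were higher on the rescaled one and 1 lower on the deposited one, and the medians were 0.00 and 0.673. Without 4wk replicate 2, 8 ribosomal proteins were lower on both scales, and 2 without P5 replicate 1. Of the respiratory chain and ATP synthase, 2 genes were lower on both scales without 4wk replicate 1.

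Genes of 2 immune lists were called mostly in opposite directions. Of 27 tested macrophage and MHC class II genes 6 were gained and none lost, 22.2% gained against 2.39% of all genes. The 6 were Ctss, H2-Aa, H2-Ab1, H2-Eb1, Cd74 and Ccl8. Csf1r, Cd68, C1qa and Mrc1 of the same list were not called on both scales. H2-Aa, of class II, was at 20.9 and 17.3 FPKM at P5 and 117 and 71.5 FPKM at 4wk, a log2 fold change of 2.21 ± 0.39 (SE) (adjusted p = 0.000646). H2-Ab1 was at 12.5 and 10.2 FPKM at P5 and 76.8 and 41.5 FPKM at 4wk, and H2-Eb1 at 11.0 and 9.49 FPKM at P5 and 68.4 and 44.6 FPKM at 4wk. All were higher in 4wk replicate 1 than in replicate 2. Without 4wk replicate 1 4 members were gained, and without 4wk replicate 2, 10. Of 26 tested markers of B, plasma and T cells 11 were lost and 2 gained, 42.3% and 7.69% against 9.58% and 2.39% of all genes. Ms4a1, CD20 of B cells, was at 4.31 and 2.97 FPKM at P5 and 0.251 and 0 FPKM at 4wk, a ratio of 34.8 (95% counting interval 11.9 to 169) on 3 reads at 4wk. Cd79a, of the B cell receptor, was at 7.30 and 5.43 FPKM at P5 and 1.17 and 0 FPKM at 4wk. Igj, the joining chain of secreted IgA, was gained instead, at 0.197 and 0.192 FPKM at P5 and 4.01 and 2.81 FPKM at 4wk, and so was Gzma, a granzyme, at 0.566 and 0.432 FPKM at P5 and 3.72 and 1.43 FPKM at 4wk. The summed level of the list was 106 and 87.6 FPKM at P5 and 47.2 and 21.2 FPKM at 4wk. Without P5 replicate 1, 5 of its members were lost, and without 4wk replicate 1, 17. Gzma was at 0.70 on the deposited scale without 4wk replicate 1, and not called.

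Genes of mucosal defence moved both ways. Of 22 tested genes 5 were gained and 7 lost, 22.7% and 31.8% against 2.39% and 9.58% of all genes. Pigr, which carries IgA into saliva, was at 15.0 and 18.1 FPKM at P5 and 101.2 and 82.8 FPKM at 4wk, a log2 fold change of 2.40 ± 0.62 (SE) (adjusted p = 0.00626). Lcn2, an iron-binding defence protein, was at 7.16 and 7.98 FPKM at P5 and 48.4 and 81.6 FPKM at 4wk. S100a9, of neutrophils, was at 15.1 and 9.28 FPKM at P5 and 0 and 0 FPKM at 4wk, at least 27.8-fold lower by the floor of 3 reads over both 4wk samples. Bpifa2 and Dmbt1, given above, are 2 of the other lost members.

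Some nerve genes were lost, and 2 receptors were gained. Parasympathetic ganglia lie in the gland and drive its growth and secretion. Of 30 tested members 9 were lost and 2 gained, 30.0% and 6.67% against 9.58% and 2.39% of all genes. Prph, a neuronal filament, was at 10.3 and 20.1 FPKM at P5 and 0.737 and 1.08 FPKM at 4wk, Gap43, of growing axons, at 10.5 and 17.7 FPKM at P5 and 1.06 and 0.676 FPKM at 4wk, and Stmn2 at 10.1 and 22.1 FPKM at P5 and 0.993 and 1.39 FPKM at 4wk. In these 3 genes P5 replicate 2 was the higher of the P5 samples. Fewer members were lost without P5 replicate 2, and more without P5 replicate 1 or without 4wk replicate 2. Ret, the receptor of GDNF family factors, was gained, at 2.41 and 3.68 FPKM at P5 and 21.9 and 20.0 FPKM at 4wk, a log2 fold change of 2.46 ± 0.19 (SE) (adjusted p = 3.44e-06), and its 12wk mean was 0.351 FPKM. Ngfr, a receptor of neurotrophins, was at 6.90 and 6.603 FPKM at P5 and 21.6 and 27.6 FPKM at 4wk. Of 27 tested epithelial and myoepithelial markers 2 were lost and none gained, 7.41% lost against 9.58% of all genes. Without P5 replicate 1, 4 were lost, and without 4wk replicate 1, 5. The 2 were Kit and the keratin Krt19, at 18.7 and 24.3 FPKM at P5 and 1.502 and 7.14 FPKM at 4wk. Krt19 was not called without P5 replicate 2 or without 4wk replicate 1, at -1.54 and -0.75 on the rescaled scale. With weights from recovered reads (voom), neither Stmn2 nor Krt19 was called, with adjusted p of 0.107 and 0.111 on the rescaled scale. Krt5 was at 20.1 and 25.6 FPKM at P5 and 14.4 and 13.7 FPKM at 4wk and Acta2, actin of myoepithelium and vessels, at 163 and 183 FPKM at P5 and 96.8 and 170.2 FPKM at 4wk, neither called, and Krt14 at 45.5 and 58.2 FPKM at P5 and 22.6 and 24.5 FPKM at 4wk was called on the deposited scale only.

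**Figure D5:**
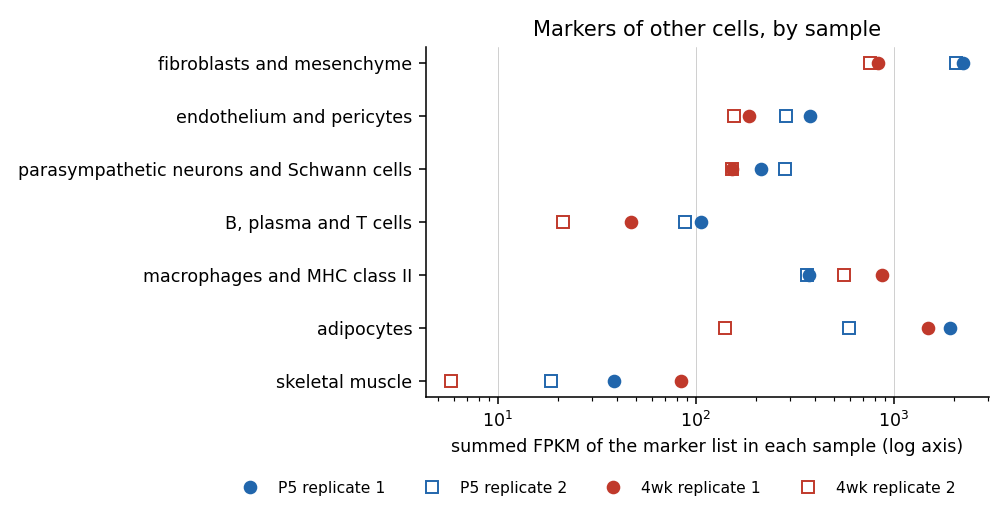
Summed FPKM of 7 marker lists in each of the 4 samples, on a log axis (circles replicate 1, squares replicate 2, blue P5, red 4wk). Adipocyte and muscle markers separate replicate 1 from replicate 2 of each age, whereas fibroblast markers separate P5 (2245 and 2048) from 4wk (833.6 and 759).

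Fat and lipid genes moved with the difference between replicates. Of 18 adipocyte genes 1 was gained and 3 were lost, 5.56% and 16.7% against 2.39% and 9.58% of all genes. Scd1, a desaturase of fatty acids, was called gained, but from 4.23 and 3.51 FPKM at P5 it went to 329 and 26.7 FPKM at 4wk, so that replicate 1 held most of the gain. Plin4, Lpl and Lep were lost, with Lpl at 119.8 and 77.8 FPKM at P5 and 50.01 and 14.8 FPKM at 4wk. Without 4wk replicate 1, 14 of the 18 were lost, without P5 replicate 2, 6, and without P5 replicate 1 none. Without 4wk replicate 2, 3 were gained and 2 lost. Of 47 tested genes of fatty acid, cholesterol and ketone metabolism 4 were gained and 3 lost, which is 8.51% and 6.38%. Without 4wk replicate 2, 8 were gained, without 4wk replicate 1, 6 were lost, and without P5 replicate 1, 1 was lost. Fabp3, a fatty acid carrier, was lost, at 114 and 17.7 FPKM at P5 and 8.86 and 0 FPKM at 4wk, and the higher value of each age is that of replicate 1. Lpin1, of fat synthesis, was at 8.70 and 5.17 FPKM at P5 and 28.3 and 20.1 FPKM at 4wk, and Bdh1, of ketone use, at 2.70 and 3.17 FPKM at P5 and 14.1 and 7.84 FPKM at 4wk, both gained. Fabp3, Lpl and Plin4 were not called without P5 replicate 1, at -2.31, -0.86 and -1.04 on the rescaled scale with adjusted p of 0.139, 0.213 and 0.133, nor Lep, at -0.97 on the deposited scale. Lpl was not called without 4wk replicate 2 either, at -0.94. With voom, Fabp3, Lep and Plin4 were not called, with adjusted p of 0.169, 0.104 and 0.102 on the rescaled scale. The part of fat in these results was not tested. Of 17 tested skeletal muscle genes none was called, and 8 were gained without 4wk replicate 2, while 2 were lost without 4wk replicate 1 and 1 without P5 replicate 2. The other 15 of 32 were under 1 FPKM in all 4 samples.

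Circadian genes cycle over the day, and the hour of dissection is not given in the sources used here. Of 18 tested members 6 were lost and 1 gained, 33.3% and 5.56% against 9.58% and 2.39% of all genes. Per3 was at 10.1 and 8.26 FPKM at P5 and 1.56 and 0.359 FPKM at 4wk and Per2 at 4.36 and 3.19 FPKM at P5 and 0.324 and 0.108 FPKM at 4wk, both of the negative arm, and Nfil3, a repressor that cycles opposite to Hlf and other activators, was gained, at 12.4 and 9.13 FPKM at P5 and 33.7 and 29.1 FPKM at 4wk. Hlf was at 3.36 and 2.91 FPKM at P5 and 0.152 and 0.222 FPKM at 4wk. Without 4wk replicate 2, 4 were lost. Hour and age cannot be told apart. Of 23 tested immediate early and heat shock genes 1 was lost, Egr1, at 27.9 and 17.7 FPKM at P5 and 5.09 and 2.54 FPKM at 4wk, and 3 were lost without P5 replicate 2 or without 4wk replicate 2. On all 4 libraries 4.35% of this list was lost, against 9.58% of all genes. Of the 16 red cell genes on their list, 14 were under 1 FPKM in all 4 samples. The list left out the globin symbol Beta-s, so that the level of red cell RNA is not given here. Alas2, of heme synthesis, was lost, at 22.9 and 12.0 FPKM at P5 and 4.26 and 2.54 FPKM at 4wk. Of 34 tested carriers of amino acids and metals 3 were lost and none gained, 8.82% lost against 9.58% of all genes, with Slc40a1, the iron exporter, at 10.8 and 11.8 FPKM at P5 and 2.29 and 3.49 FPKM at 4wk, Slc39a4, a zinc importer, at 4.30 and 4.83 FPKM at P5 and 1.16 and 0.677 FPKM at 4wk and Slc7a10, an amino acid carrier, at 3.68 and 2.09 FPKM at P5 and 0.529 and 0.258 FPKM at 4wk. Alas2 and Slc7a10 were not called without P5 replicate 1, at -1.08 (adjusted p = 0.122) and -0.95 on the rescaled scale, and Slc40a1 not without 4wk replicate 1, at -0.81. With voom, Alas2 had an adjusted p of 0.213 on the rescaled scale and was not called.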

How the data were processed

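The study measured RNA of submandibular glands by 50-base single-end sequencing. The authors aligned reads with TopHat2 2.0.13 and Bowtie2 2.2.6 to mm9, counted them per gene with featureCounts, leaving out reads with several alignments or on more than 1 gene, and deposited FPKM per gene, 1 file per sample. Multi-copy families therefore lose reads. Strand use in counting is not given in the sources used here.

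From these files, log2(FPKM + 1) of genes at 1 FPKM or more in at least 1 of the 4 P5 and 4wk samples was fitted with limma 3.58.1 (R 4.3.3) over 13 samples in 6 time points, with a trend, and p-values were Benjamini-Hochberg adjusted over 13373 genes. Calls needed an adjusted p under 0.1 and a change of 1 or more on the log2 scale, on deposited FPKM and after median-of-ratios rescaling. Genes, groups and the 35 gene lists were chosen with earlier results of these data known. Named were the 10 largest changes in each direction (no overlap, no small RNA or clone-named gene), the 3 largest of each list and direction, and textbook markers. Chosen after their values were seen were Pip, 2310057J18Rik, Azgp1, Prh1, Dcpp1, Dcpp3, Klk1b26, Klf9, Atp2a3, Ucp1, Eif2s3y, and all genes under other observations. Values of all 20268 genes above 0 in any sample were whole multiples of 1 read, within 0.001 read, which gave the read numbers. Counting intervals are exact 95% intervals. The code was tested on simulated data. Sequences came from RefSeq. Alternatives covered the pseudocount, filters, scaling, fit, each replicate and, chosen after seeing the data, weights from recovered reads (voom). Sexes were not compared here, and some genes of the lists are not reported here.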

Additional observations from a re-analysis of the deposited data

How the results depend on the processing

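The calls on both scales, 1601 in all, ranged from 1476 to 2536 over the alternatives. With a pseudocount of 0.1 there were 2536, 424 higher and 2112 lower, which is more than 1.5 times as many. Leaving out 1 library at a time gave 1515 to 2168 on both scales, 3242 to 3984 on the deposited and 2097 to 2884 on the rescaled scale, and 4wk replicate 2 was the one left out at 2168 and 2884. Scaling to the sum over all but the 10 highest genes left 86.5% of the calls lower at 4wk, against 91.0% as deposited and 57.9% rescaled. Weights from recovered reads (voom), an alternative chosen after seeing the data, gave 2142 calls on both scales. Among them were 316 of the 320 gained and 1102 of the 1281 lost genes, so that a larger total does not hold every call. Not all gained and lost genes were called again with 1 library left out either, and fewest were without 4wk replicate 1. The replicate numbers are shared by the 2 ages, but nothing says that they pair animals. With the replicate block there were 3561 calls on the deposited scale, 2202 on the rescaled scale and 1597 on both, 1596 of them shared with the fit without it, and the deviations of same-numbered samples correlated over genes with r = 0.2765. No named gene with a call changed sign under any alternative. The lost genes had a median of 33 reads over both 4wk samples and 1440 at P5, and the gained genes 485 and 638.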

Other observations

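Some genes outside the lists were gained too, and were chosen here after their values were seen. Sult1e1, which sulfates estrogen, was at 0 and 0.0753 FPKM at P5 and 39.7 and 83.2 FPKM at 4wk, and Ttr, a carrier of thyroid hormone, at 0 and 0 FPKM at P5 and 24.6 and 24.8 FPKM at 4wk, with no read at P5. Mup4, a major urinary protein that binds pheromones, was at 0.0473 and 0.244 FPKM at P5 and 15.1 and 32.0 FPKM at 4wk, and Mup5 at 119.8 and 128 FPKM at P5 and 2450.4 and 1093 FPKM at 4wk, though copies of this family share reads. Crisp1, a neighbour of Crisp3, was at 13.9 and 17.8 FPKM at P5 and 542 and 954 FPKM at 4wk. Kiss1, known as a peptide hormone of the brain, was at 0.0417 and 0.0478 FPKM at P5 and 8.32 and 19.3 FPKM at 4wk, with 2 reads at P5 and 100 at 4wk.

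Among the lost genes outside the lists was Agtr2, a receptor of angiotensin that is known from fetal tissue, at 38.6 and 39.8 FPKM at P5 and 0 and 0.394 FPKM at 4wk. Proteases of mast cells were lost too. Cma1 was at 25.4 and 25.5 FPKM at P5 and 1.92 and 1.40 FPKM at 4wk, Cpa3 at 13.1 and 14.8 FPKM at P5 and 0 and 0.778 FPKM at 4wk, and Mcpt4 at 11.6 and 13.3 FPKM at P5 and 1.39 and 1.52 FPKM at 4wk, and their E18.5 means were 99.4, 116 and 13.7 FPKM. None of these 3 was called with weights from recovered reads (voom), where the adjusted p was 0.169 for Cma1 and Cpa3 on the deposited scale and 0.218 for Mcpt4 on the rescaled scale. Families read by symbol were picked after their values were seen. Of these, 7 of 13 tested Adamts genes, 5 of 18 semaphorins (Sema) and 4 of 7 beta-tubulins (Tubb) were lost and none gained. Of 304 tested Zfp genes 9 were lost and 2 gained. Over all 13373 genes tested, 1281 were lost and 320 gained, which is 9.58% and 2.39%, and the 4 families are to be read beside these shares.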
